A study of Mus musculus with 6 samples.

Results

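Desmosomes are the junctions that rivet neighbouring epithelial cells together, and their 10 cadherin and plaque genes listed here were followed in mouse corneal epithelium. The genes were chosen by name, with earlier results of these data known. The list holds the desmosomal cadherins *Dsg1a*, *Dsg2*, *Dsg3*, *Dsc2* and *Dsc3* and the plaque genes *Jup*, *Pkp1*, *Pkp2*, *Pkp3* and *Dsp*. They are 10 of the 17784 genes in the expression table, and all 10 passed the filter on low counts. After ablation of *Ptch1* in mesenchymal cells, *Dsg2*, *Dsg3* and *Pkp3* rose by 1.36-fold to 1.52-fold and *Dsg1a* fell to 0.683 of its control level. Scaled for gene length and depth, the summed level of the desmogleins overlapped between the groups, while the gene that held the largest share of it differed.

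Desmogleins and desmocollins are calcium-dependent cadherins that span the membrane and bind those of the next cell. Inside the cell their tails hold plakoglobin (*Jup*) and plakophilins, armadillo-repeat proteins that cluster the cadherins, and desmoplakin (*Dsp*) ties this plaque to keratin filaments. In the epidermis *Dsg3* and *Dsc3* are typical of the basal layers, and *Dsg1* genes and *Dsc1* of the upper layers. *Dsg2*, *Dsc2* and *Pkp2* are also used by simple epithelia and the heart. Cell layers were not measured in these bulk corneal samples.

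Bulk RNA-seq was made from corneal epithelium separated with EDTA, in 3 *Prrx1-CreERT;Ptch1f/f* samples (labelled KO, here Ptch1-ablated) and 3 *Ptch1f/f* control samples (labelled WT). *Ptch1* encodes the receptor that holds back Hedgehog signalling, and tamoxifen-induced *Prrx1-CreERT* acts in keratocytes and other mesenchymal cells of the eye, so the sequenced epithelium was not the cell targeted. The labels give an age of 10 weeks, 3 doses of tamoxifen and a time of 2 months for both groups, and the paper places tamoxifen induction of these mice at 2 months of age. The labels do not say whether the samples were separate animals, while the methods speak of biological replicates, so the p-values measure only the spread between these samples. The sex of each sample is not given.

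Total expected counts ran from 20296741 to 20625813 per sample. *Ptch1* itself was at 7.31, 9.70 and 10.2 TPM (the relative abundance of transcripts, scaled for gene length and depth) in controls and at 5.28, 6.33 and 7.01 TPM in Ptch1-ablated samples, which did not overlap (log2 fold change -0.51, SE 0.13, adjusted p = 0.0401, edgeR's quasi-likelihood test with Benjamini-Hochberg adjustment). The deletion was directed at other cells, so these *Ptch1* levels do not check it. Principal component 1 held 58.1% of the variance, and along it the controls lay between -33.7 and -26.5, and Ptch1-ablated replicate 1 lay at 51.7, apart from replicates 2 and 3 at 18.3 and 19.1. The summed TPM of 7 corneal epithelial markers was 105100 to 113500 in controls and 93190 to 115200 in Ptch1-ablated samples. Marker lists of other cell types are given with the desmoglein results.

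A gene is said to have passed where its adjusted p was at most 0.05 over the 12999 genes tested, and to have been called where its fold change was also at least 2. Of all genes tested, 14.0% passed, 7.61% upward and 6.41% downward. Of the 10 desmosome genes, 4 passed, 3 upward and 1 downward. Of the 4158 more abundant genes (1000 or more normalized counts on average), a class that holds 9 of the 10, 15.9% passed. Of all genes tested 3.23% were called. None of the 10 was called, with 0 by edgeR, by DESeq2 and by limma-voom. In edgeR 7 of the 10 had an unadjusted p under 0.05, against 4358 of the 12999 genes tested. The groups did not overlap for 8 of the 10 in normalized counts, against 39.9% of all genes tested. The median log2 fold change was 0.18 over the 10 and -0.01 over all genes tested. Above 0 lay 7 of the 10, against 6299 of the 12999 genes tested. This list and those below were made with earlier results of these data known, so such counts describe the lists and test nothing.

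**Figure D1:**
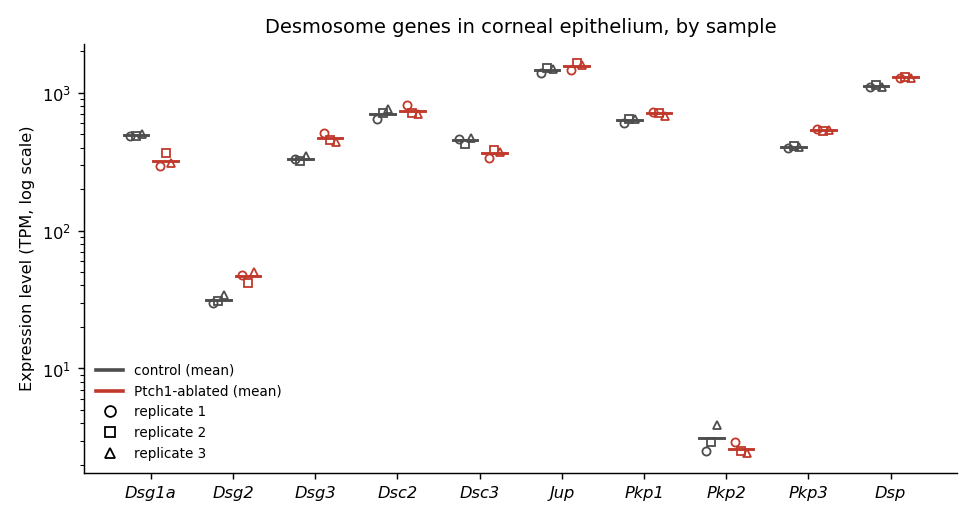
Expression level in TPM (log axis) of the 10 desmosome genes in each of 3 control and 3 Ptch1-ablated samples, with marker shape for the replicate number and a bar for the group mean. *Jup* and *Dsp* were highest and *Pkp2* lowest in both groups, and *Dsg1a* was the desmoglein that was lower in every Ptch1-ablated sample.

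Among the desmogleins, *Dsg1a* (gene 13510), the most abundant one in control epithelium, was at 485, 481 and 504 TPM in the controls. It was at 292, 363 and 310 TPM in the Ptch1-ablated samples. Every Ptch1-ablated sample was thus below every control, and replicate 2 was the closest to them. *Dsg1a* fell by 0.55 on the log2 scale (SE 0.10, 95% interval -0.78 to -0.32, adjusted p = 0.0183, edgeR's quasi-likelihood test with Benjamini-Hochberg adjustment). In normalized counts this was 23752 ± 830 (SD, n = 3) in controls and 16220 ± 2075 (SD, n = 3) in Ptch1-ablated samples. The test was no longer passed when any one control was left out (adjusted p = 0.0550 to 0.0762, same edgeR test).

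*Dsg3* (gene 13512), the desmoglein typical of basal cells in the epidermis, was at 329, 319 and 347 TPM in the controls. In the Ptch1-ablated samples it was at 514, 457 and 440 TPM. The groups did not overlap, and Ptch1-ablated replicate 1 was the highest. *Dsg3* rose by a log2 fold change of 0.55 (SE 0.10, 95% interval 0.31 to 0.78, adjusted p = 0.0189, edgeR's quasi-likelihood test with Benjamini-Hochberg adjustment), and it too lost the threshold without any one control (adjusted p = 0.0522 to 0.0948, same edgeR test).

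*Dsg2* (gene 13511), the desmoglein shared with simple epithelia, was far less abundant, at 30.1, 30.6 and 33.9 TPM in controls. It was at 47.3, 41.8 and 50.3 TPM in Ptch1-ablated samples. All 3 Ptch1-ablated samples were above all controls, and its log2 fold change of 0.60 was the largest of the 10 genes in this fit (SE 0.08, 95% interval 0.41 to 0.79, adjusted p = 0.00947, edgeR's quasi-likelihood test with Benjamini-Hochberg adjustment). It lost the threshold without control replicate 2 (adjusted p = 0.0617, same edgeR test).

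*Dsg1a* and *Dsg3* thus had changes of opposite sign. Summed over the 6 desmoglein genes, the level was 904 ± 33.7 TPM (SD, n = 3) in controls and 898 ± 40.1 TPM (SD, n = 3) in Ptch1-ablated samples, which overlapped. A share within a sample does not depend on how samples are scaled to each other. *Dsg1a* held 54.6%, 54.7% and 53.4% of desmoglein TPM in the controls and 31.7%, 39.5% and 36.4% in the Ptch1-ablated samples. *Dsg3* held 37.0%, 36.3% and 36.9% in the controls and 55.7%, 49.6% and 51.7% in the Ptch1-ablated samples. The leading desmoglein in TPM was therefore *Dsg1a* in all 3 controls and *Dsg3* in all 3 Ptch1-ablated samples. In normalized counts, which are not scaled for gene length, *Dsg1a* was above *Dsg3* in Ptch1-ablated replicate 2, at 18614 against 18099. The *Dsg3* to *Dsg1a* ratio in TPM was 0.678, 0.664 and 0.690 in controls and 1.76, 1.26 and 1.42 in Ptch1-ablated samples. No test was run on shares or ratios. *Dsg2* held 3.49% ± 0.106 (SD, n = 3) in controls and 5.19% ± 0.681 (SD, n = 3) in Ptch1-ablated samples.

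**Figure D2:**
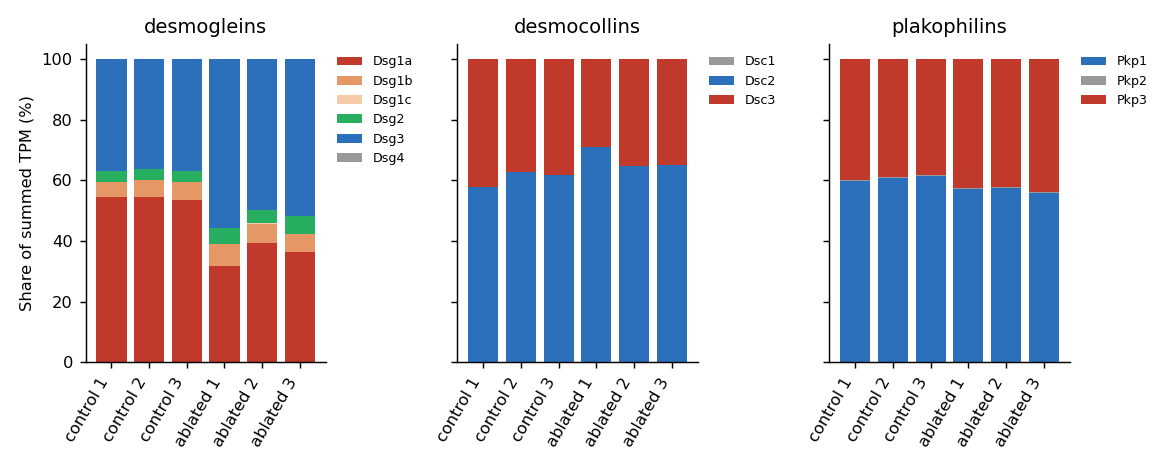
Share of summed TPM (%) held by each gene within the desmogleins, desmocollins and plakophilins, with 1 stacked bar for each of 3 control and 3 Ptch1-ablated samples. The *Dsg1a* segment was 53.4% to 54.7% in controls and 31.7% to 39.5% in Ptch1-ablated samples, while the *Pkp1* and *Pkp3* segments differed by a few percentage points.

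In mice the *Dsg1* gene is present as the neighbouring copies *Dsg1a*, *Dsg1b* and *Dsg1c*, and reads that match several genes are divided among them by RSEM. The expected counts of *Dsg1a*, *Dsg2* and *Dsg3* were not whole numbers (more than 0.005 from one) in 6 of 6 samples, so each included divided reads and its level is uncertain to that extent. The same held for *Pkp1* in 2 of 6 samples and for the other 6 members in 0. With the counts of the 3 *Dsg1* copies summed, a setting chosen after the data were seen, their total fell by 0.44 on the log2 scale (SE 0.09, adjusted p = 0.0263, edgeR's quasi-likelihood test with Benjamini-Hochberg adjustment). *Dsg1b* alone had a log2 fold change of 0.34 (adjusted p = 0.132) and *Dsg1c* of -0.46 (adjusted p = 0.249) in edgeR's quasi-likelihood test with Benjamini-Hochberg adjustment. The mean level of *Dsg1b* was 49.7 TPM in controls, against 490 TPM for *Dsg1a*, and that of *Dsg1c* was 0.717 TPM.

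Values of other genes and marker lists are set beside the desmoglein results here, and no link between them was tested. The summed TPM of 4 limbal and basal markers was 1599 to 2447 in controls and 4567 to 9337 in Ptch1-ablated samples, and 1 of the 4, *Krt14*, passed. The others, *Krt15*, *Gpha2* and *Trp63*, each overlapped between the groups, at log2 fold changes of 0.99, 0.26 and -0.03. *Krt14*, a basal keratin, was at 534 to 644 TPM in controls and 2420 to 5798 TPM in Ptch1-ablated samples, where replicate 1 was the highest. In normalized counts, Ptch1-ablated replicate 1 was also the Ptch1-ablated sample farthest from the control mean for 6 of the 8 desmosome genes whose groups did not overlap. The exceptions were *Jup*, farthest in replicate 2, and *Dsg1a*, at 14940 in replicate 3 against 15106 in replicate 1. The same count was not made over all genes. Replicate 1 also lay farthest from the controls on principal component 1, which was computed over all genes tested, so the count is not particular to desmosome genes. Without Ptch1-ablated replicate 1, *Dsg1a*, *Dsg2*, *Dsg3* and *Pkp3* all passed. The conjunctival list summed to 1330 to 2157 TPM in controls and 2046 to 4168 TPM in Ptch1-ablated samples, with 0 of 4 tested markers passing in edgeR and 2 at an unadjusted p under 0.05. *Ddx3y* and *Eif2s3y*, Y-linked genes chosen after their values were seen, were present in every sample. *Eif2s3y* was at 37.2 to 41.5 TPM in controls and 47.0 to 76.1 TPM in Ptch1-ablated samples, and *Ddx3y* was at 13.4 to 14.4 and 16.2 to 25.6 TPM. The part of limbal or conjunctival cells and of sex in the desmoglein results was not tested. In bulk samples, fewer cells of a type and less RNA per cell cannot be told apart.

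Markers of other cell types were also summed. The stromal list summed to 1.27 to 27.7 TPM in controls and 2.01 to 3.56 TPM in Ptch1-ablated samples, and *Kera* had at most 1 count in any sample. The endothelial list summed to at most 0.32 TPM, the melanocyte list to 8.11 to 9.76 TPM and the epidermal list to 11.0 to 15.4 TPM over all 6 samples. The immune list summed to 125 to 165 TPM in controls and 153 to 206 TPM in Ptch1-ablated samples, with 0 of 3 tested markers passing in edgeR and 1 at an unadjusted p under 0.05. Within the epidermal list *Krt1* passed downward and *Flg* upward, both at low levels. *Flg* was at most 0.02 TPM in controls and 0.10 TPM in Ptch1-ablated samples.

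The desmocollins moved less. *Dsc3* (gene 13507), the basal desmocollin of the epidermis, was at 464, 426 and 469 TPM in controls and at 335, 386 and 374 TPM in Ptch1-ablated samples. The groups did not overlap, but its log2 fold change of -0.27 did not pass (SE 0.08, 95% interval -0.46 to -0.09, adjusted p = 0.0598, edgeR's quasi-likelihood test with Benjamini-Hochberg adjustment). *Dsc3* and *Dsg3*, both basal cadherins of the epidermis, thus had values of opposite sign. *Dsc2* (gene 13506), the most abundant cadherin, was at 640, 714 and 758 TPM in controls and at 817, 713 and 695 TPM in Ptch1-ablated samples. The *Dsc2* groups overlapped (log2 fold change 0.12, SE 0.11, 95% interval -0.13 to 0.38, adjusted p = 0.465, edgeR's quasi-likelihood test with Benjamini-Hochberg adjustment).

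*Dsc2* held 60.7% ± 2.47 (SD, n = 3) of desmocollin TPM in controls and 66.9% ± 3.44 (SD, n = 3) in Ptch1-ablated samples, without overlap. The ratio of *Dsc2* to *Dsc3* was 1.56 ± 0.157 (SD, n = 3) in controls and 2.05 ± 0.337 (SD, n = 3) in Ptch1-ablated samples. The desmocollin total overlapped between groups, at 1158 ± 63.8 TPM and 1108 ± 41.8 TPM (SD, n = 3 each). *Dsc1*, the desmocollin of upper epidermal layers, was at 0.67 to 1.03 TPM over all samples. The sum of all desmosomal cadherins was 1993 to 2171 TPM in controls and 1922 to 2075 TPM in Ptch1-ablated samples, which overlapped.

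The 9 desmosomal cadherin genes sit in 1 cluster with no other protein-coding gene between the first and the last, in the order *Dsc3*, *Dsc2*, *Dsc1*, *Dsg1c*, *Dsg1a*, *Dsg1b*, *Dsg4*, *Dsg3* and *Dsg2*. Of these, *Dsg1a* was lower and the neighbours *Dsg3* and *Dsg2* at the end of the cluster were higher, with *Dsg1b* and *Dsg4* between them. *Dsg4*, a hair desmoglein, had 1 to 5 counts per sample and was not tested.

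**Figure D3:**
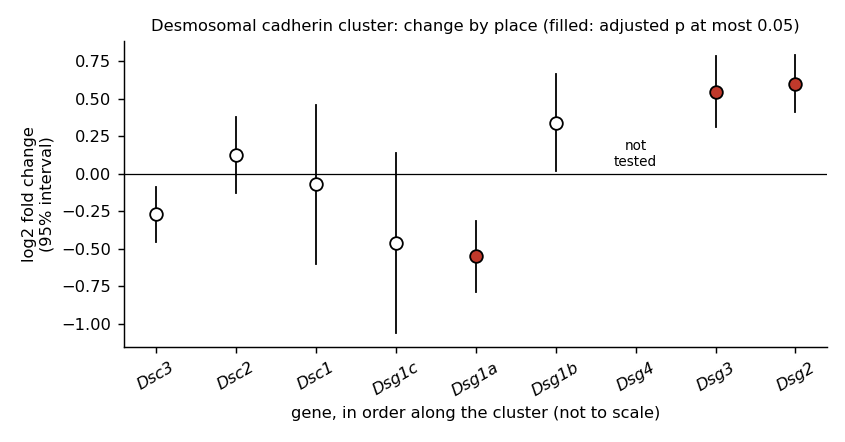
Log2 fold change (Ptch1-ablated over control) with its 95% interval for the 9 desmosomal cadherin genes in their order along the chromosome, with distances not to scale and filled points for an adjusted p of at most 0.05. *Dsg1a* lay at -0.55 and the neighbours at the far end, *Dsg3* and *Dsg2*, at 0.55 and 0.60, while *Dsg4* was not tested.

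In the plaque, *Pkp3* (gene 56460), the plakophilin found in most simple and stratified epithelia, was at 400.2, 411 and 400.4 TPM in controls. It was at 541, 526 and 533 TPM in Ptch1-ablated samples. The spread within each group was small beside the gap, and all Ptch1-ablated samples were above all controls. *Pkp3* rose by a log2 fold change of 0.45 (SE 0.07, 95% interval 0.28 to 0.61, adjusted p = 0.0132, edgeR's quasi-likelihood test with Benjamini-Hochberg adjustment). It lost the threshold without control replicate 2 (adjusted p = 0.0727, same edgeR test).

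*Pkp1* (gene 18772), the plakophilin of stratified epithelia, was at 603, 644 and 646 TPM in controls and at 730, 714 and 680 TPM in Ptch1-ablated samples. Its groups did not overlap, but its log2 fold change of 0.21 did not pass (SE 0.08, 95% interval 0.02 to 0.40, adjusted p = 0.120, edgeR's quasi-likelihood test with Benjamini-Hochberg adjustment). *Pkp2* (gene 67451), the cardiac and simple epithelial plakophilin, was the least abundant of the 10, at 2.51 to 3.89 TPM in controls and 2.42 to 2.93 TPM in Ptch1-ablated samples. The interval of its log2 fold change was wide, from -0.69 to 0.29 (adjusted p = 0.547, edgeR's quasi-likelihood test with Benjamini-Hochberg adjustment), with 83.0 ± 16.8 and 72.4 ± 11.0 normalized counts (SD, n = 3 each). The plakophilin total was 1038 ± 28.0 TPM in controls and 1244 ± 29.1 TPM in Ptch1-ablated samples (SD, n = 3 each), without overlap. *Pkp3* held 38.9% ± 0.830 of it in controls and 42.9% ± 0.842 in Ptch1-ablated samples (SD, n = 3 each).

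Plakoglobin and desmoplakin were the most abundant of the 10. *Jup* (gene 16480) was at 1381, 1518 and 1479 TPM in controls and at 1466, 1628 and 1595 TPM in Ptch1-ablated samples, which overlapped in TPM but not in normalized counts. Its log2 fold change of 0.15 did not pass (SE 0.07, 95% interval -0.02 to 0.32, adjusted p = 0.191, edgeR's quasi-likelihood test with Benjamini-Hochberg adjustment). *Dsp* (gene 109620) was at 1092, 1140 and 1104 TPM in controls and at 1288, 1300.5 and 1283 TPM in Ptch1-ablated samples. The *Dsp* groups did not overlap, while its log2 fold change of 0.25 did not pass (SE 0.08, 95% interval 0.06 to 0.43, adjusted p = 0.0743, edgeR's quasi-likelihood test with Benjamini-Hochberg adjustment). The ratio of *Dsp* to summed cadherin TPM was 0.540 ± 0.0285 in controls and 0.644 ± 0.0235 in Ptch1-ablated samples (SD, n = 3 each), without overlap.

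Ordered by mean TPM, the control levels ran *Jup*, *Dsp*, *Dsc2*, *Pkp1*, *Dsg1a*, *Dsc3*, *Pkp3*, *Dsg3*, *Dsg2* and *Pkp2*. The only neighbours in that order that overlapped were *Dsc2* and *Pkp1*. In Ptch1-ablated samples *Jup*, *Dsp*, *Dsc2* and *Pkp1* again led, followed by *Pkp3*, *Dsg3*, *Dsc3*, *Dsg1a*, *Dsg2* and *Pkp2*. There *Dsc2* overlapped *Pkp1*, and *Dsc3* overlapped *Dsg1a*. *Dsg1a* stood at place 5 in controls and place 8 in Ptch1-ablated samples.

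The 250 bases before the start of *Dsp* and of *Jup*, the most abundant members, are shown as RefSeq gives them for build GRCm38.p6. They were the only 2 of the 10 with an entry. Bases just after the start were found in a GENCODE transcript of *Dsp* but in none of *Jup*, so the *Jup* start rests on RefSeq alone. Both are GC-rich, at 72.4% and 62.0% GC. Capitals mark matches, on either strand, to the Sp/KLF GC box GGGCGG and to the CACCC box, motifs bound by Sp and KLF factors.
Dsp, chr13:38151044-38151293, plus strand: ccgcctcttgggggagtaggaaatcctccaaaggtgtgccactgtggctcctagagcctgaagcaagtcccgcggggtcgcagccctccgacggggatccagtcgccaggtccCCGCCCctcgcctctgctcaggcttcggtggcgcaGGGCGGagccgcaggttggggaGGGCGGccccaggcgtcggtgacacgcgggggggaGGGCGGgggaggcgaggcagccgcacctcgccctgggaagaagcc
Jup, chr11:100397791-100398040, minus strand: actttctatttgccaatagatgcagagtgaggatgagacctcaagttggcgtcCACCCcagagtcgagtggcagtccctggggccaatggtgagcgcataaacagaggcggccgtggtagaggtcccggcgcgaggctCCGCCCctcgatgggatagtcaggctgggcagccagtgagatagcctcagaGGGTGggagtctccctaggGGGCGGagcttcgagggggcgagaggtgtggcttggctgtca
GGGCGG matched 4 times in the *Dsp* window and 2 times in the *Jup* window, and 32.7% of 32851 RefSeq promoter windows of the same length hold it. CACCC matched 2 times in the *Jup* window and not in that of *Dsp*, against 52.0% of all windows. The AP-1 motif TGANTCA (6.75% of all windows), the GRHL motif AACNGGTT (1.79%) and the TATA box TATAAA (12.4%) were not among the letters of either window. These matches are a description of letters, since the files hold no binding data.

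Of 10 other desmosome genes, 9 were tested and, against 14.0% of all genes tested, 1 passed. This was *Cdsn*, which encodes corneodesmosin, an adhesive protein of corneodesmosomes in cornified layers. It was at 11.2, 4.66 and 8.84 TPM in controls and at 78.0, 32.0 and 14.7 TPM in Ptch1-ablated samples, so the groups did not overlap but the Ptch1-ablated samples spread widely. *Cdsn* rose by a log2 fold change of 2.42 (SE 0.63, adjusted p = 0.0453, edgeR's quasi-likelihood test with Benjamini-Hochberg adjustment), and was called. *Perp*, a tetraspan membrane protein of desmosomes, and the plakins periplakin (*Ppl*) and envoplakin (*Evpl*) did not pass, at log2 fold changes of 0.21, 0.21 and -0.05. *Dsc1*, *Pkp4* and *Kazn* did not pass either, at -0.07, -0.24 and -0.15. The median log2 fold change over the 9 tested genes was -0.05, against -0.01 over all genes tested.

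**Figure D4:**
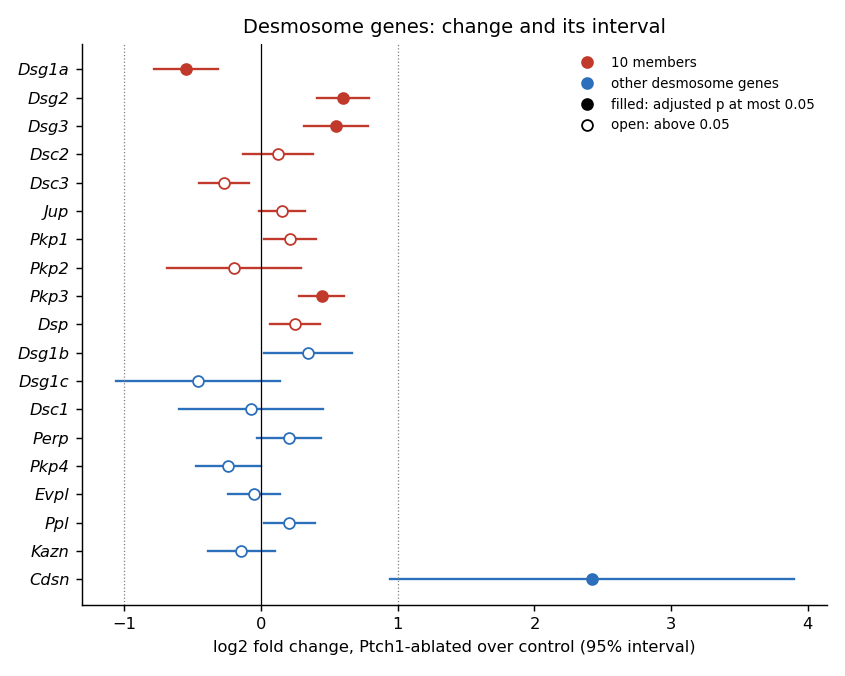
Log2 fold change (Ptch1-ablated over control) with its 95% interval for the 10 desmosome genes and 9 other desmosome genes, filled where the adjusted p was at most 0.05. *Dsg1a* lay below 0, *Dsg2*, *Dsg3*, *Pkp3* and *Cdsn* above it, and the dotted lines at 1 and -1 mark a fold change of 2, which of these only *Cdsn* exceeded.

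Adherens junctions are the other cadherin junction of these cells, linked to actin. Of 13 adherens junction genes tested, 4 passed upward and 0 downward, against 14.0% of all genes tested in either direction. The median log2 fold change over the 13 was 0.14. *Cdh3*, or P-cadherin, rose from 6.54 ± 1.77 to 15.3 ± 4.87 TPM (SD, n = 3 each), a log2 fold change of 1.28 (adjusted p = 0.0281, edgeR's quasi-likelihood test with Benjamini-Hochberg adjustment). The cytoplasmic genes *Vcl*, *Plekha7* and *Lmo7* rose by 0.41, 0.34 and 0.30 on the log2 scale. *Cdh1*, or E-cadherin, did not pass, at a log2 fold change of 0.09 (95% interval -0.07 to 0.25).

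Keratins are the filaments to which desmoplakin binds. Against 14.0% of all genes tested in either direction, 4 of the 8 keratins in the keratin list passed upward and 0 downward. These were *Krt14*, *Krt16*, *Krt17* and *Krt6a*, with log2 fold changes of 2.81, 6.80, 2.80 and 0.86, each larger than that of any of the 10 desmosome genes in the same fit. The list does not hold every keratin tested, and *Krt1*, in the epidermal list, passed downward at a log2 fold change of -0.64. *Krt16* was at 20.1, 5.63 and 16.1 TPM in controls and at 2770, 980 and 718 TPM in Ptch1-ablated samples, where replicate 1 was again the highest. *Krt12*, the corneal keratin, had a log2 fold change of -0.10 (adjusted p = 0.645, edgeR's quasi-likelihood test with Benjamini-Hochberg adjustment), and its groups overlapped. Against 14.0% of all genes tested in either direction, 2 of 13 genes listed as regulators of desmosomes passed upward and 0 downward. They were *Atp2a2*, the calcium pump of the endoplasmic reticulum, with a log2 fold change of 0.32, and the transcription factor *Grhl3*, with 0.56.

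The direction of every one of the 10 genes was kept under the other tools, scalings and filters and when any single sample was left out. *Dsc3*, *Dsp* and *Pkp1*, which did not pass in edgeR, passed in DESeq2 (adjusted p = 0.0104, 0.0022 and 0.0484). For a single value, an exact permutation test of 3 against 3 samples cannot give a p below 0.1.

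**Figure D5:**
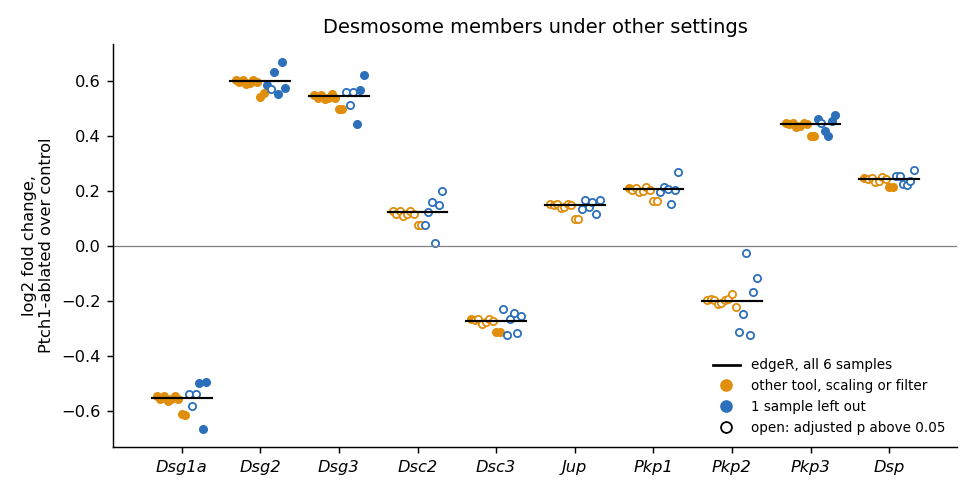
Log2 fold change (Ptch1-ablated over control) of the 10 desmosome genes with all samples in edgeR (bar), with another tool, scaling or filter (orange) and with 1 sample left out (blue), open where the adjusted p was above 0.05. No point crossed 0 from its bar, and *Dsc2* and *Pkp2* came closest to it, at 0.01 and -0.03.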

How the data were processed

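Bulk RNA-seq of 3 control and 3 Ptch1-ablated corneal epithelium samples was used. The authors depleted ribosomal RNA and estimated expression with RSEM, and the submitters' processing notes list Bowtie2 2.2.5, RSEM 1.2.12 and mm9. The deposited expected counts are RSEM estimates per gene that are not scaled for depth, and the deposited TPM and FPKM values are scaled for gene length and depth. FPKM was not used here, and 0 other sample columns were used.

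Expected counts were rounded to whole numbers, filtered with filterByExpr (12999 of 17784 genes) and scaled by TMM factors of 0.960 to 1.03. The quasi-likelihood test of edgeR 4.0.16 was run in R 4.3.3, with Benjamini-Hochberg adjustment over all genes tested. SE is the absolute log2 fold change over the square root of F. Normalized counts are CPM on TMM-scaled libraries multiplied by the mean scaled library size. Shares used TPM. Intervals are 95% intervals of the log2 fold change from the same fit, and they reflect only the spread between samples. The procedure was also run on simulated data that gave all genes the same dispersion, so that run does not show its accuracy for these samples.

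The members and gene lists were chosen with earlier results of these data known. Named were all 10 members and all other desmosome genes, and up to 5 passing genes with the smallest p of each other list. *Ptch1*, *Cdh1*, *Krt12*, *Ddx3y* and *Eif2s3y* and the markers *Kera*, *Krt15*, *Gpha2*, *Trp63*, *Pax6*, *Tkt*, *Krt1* and *Flg* were added after their values were seen. Alternatives were DESeq2 1.42.0, limma-voom (limma 3.58.1), RLE and upper-quartile factors, other filters, limma on log2 TPM, a replicate block and each sample left out in turn. Of the marker genes, *Lum*, *Muc5ac* and *Kdr* were not analysed here. Promoter windows are from RefSeq (GRCm38.p6), a different build from the files, so no coordinates were joined to the expression values.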

Additional observations from a re-analysis of the deposited data

How the results depend on the processing

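None of the 10 desmosome genes changed direction under any alternative run. The number passing was 4 with edgeR, 7 with DESeq2, 6 with limma on log2 TPM (pseudocount 1 or 0.1) and 4 under limma-voom, RLE or upper-quartile factors and both other count filters. Leaving out 1 sample at a time gave 0 to 4: 2 without control replicate 1 or 3, 0 without control replicate 2 (where 5 had an unadjusted p under 0.05 in edgeR) and 4 without any single Ptch1-ablated sample. The counts over all genes also moved with Ptch1-ablated samples. Called genes numbered 420, or 234 with limma on log2 TPM plus 1, and 59 to 430 with 1 sample left out, lowest without control replicate 2 and 250, 254 and 273 without control replicate 1, control replicate 3 and Ptch1-ablated replicate 1. Genes passing numbered 1822, and 93 to 1325 with 1 sample left out, again lowest without control replicate 2, with 690 and 734 without control replicates 1 and 3 and 1170 and 1045 without Ptch1-ablated replicates 1 and 2. Without control replicate 2, 73.1% of passing genes were higher in Ptch1-ablated samples, against 54.3% with all samples. With 1 sample left out, the *Dsg1a* share of desmoglein TPM differed by -20.2 to -16.3 percentage points between groups and that of *Dsg3* by 14.0 to 17.0. The replicate numbers are shared by the groups. Deviations of same-numbered samples from their group means had correlations of 0.105, -0.014 and 0.019. Differently numbered samples had -0.181 to 0.181. With so few samples per group, whose deviations are tied to each other, these values cannot decide whether same-numbered samples were linked. With the replicate block 390 genes were called, 1892 passed and 4 members passed. Depth limits mainly *Pkp2*, *Dsg1c*, *Dsc1* and *Dsg4*, and divided reads limit *Dsg1a*, *Dsg1b*, *Dsg1c*, *Dsg2* and *Dsg3*, and in some samples *Pkp1* and *Dsc1*.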
